A study of Homo sapiens with 6 samples.

Results

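The genes described here are 10 of the 58051 genes in the count table: the membrane mucins MUC1, MUC4, MUC13, MUC16 and MUC20, the secreted mucins MUC5AC and MUC5B, and the trefoil factors TFF1, TFF2 and TFF3. They were chosen by name, as family members relevant to glandular epithelium, and each symbol matched 1 Ensembl ID in GENCODE 29. RNA was sequenced from OE33, a human cell line grown from an oesophageal adenocarcinoma. One group of 3 libraries came from cells given 15 µM APX2009, a small molecule made to block the redox function of APE1, for 24 h, and 3 libraries came from untreated cells. The series names the replicates as independent biological ones, all from a single cell line; no vehicle is named for the untreated cells, so the compound and its solvent cannot be told apart.

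Mucins are large proteins whose long serine- and threonine-rich stretches carry O-linked glycans. Membrane mucins stay anchored in the apical surface of epithelial cells and can signal through their cytoplasmic tails, whereas the gel-forming mucins MUC5AC and MUC5B are secreted and make up mucus. Trefoil factors are small secreted peptides, held in shape by disulphide bonds, that are released together with mucins and help to restore an injured surface. In the stomach MUC5AC and TFF1 mark surface mucous cells and TFF2 marks gland mucous cells, while TFF3 marks intestinal goblet cells. In Barrett's oesophagus, the precursor of this cancer, such columnar products appear in an organ normally lined by squamous epithelium.

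The tandem repeats of the coding sequence and the shared copies of MUC20 can affect which reads are assigned to these genes. The repeat units are therefore shown before the values, and how far they affected these counts was not measured. The repeats were found in the longest coding transcript of each gene in GENCODE 29 as stretches of at least 4 units in which bases 1 unit apart matched at 80% or more. For each gene only the longest stretch at a single unit length was kept, so repeats elsewhere in the coding sequence were not counted. That stretch covered 57.1% of the MUC1 coding sequence, in a unit of 60 bases. It covered 46.3% of MUC4, at a spacing of 96 bases, and 35.1% of MUC20, in a unit of 57 bases. The commonest unit of each is printed 5′ to 3′ on the coding strand, all in lower case. The printed MUC4 unit holds a shorter stretch that occurs again within it with few changes. Its 96 bases are thus the spacing that the search kept, not the shortest unit of that repeat.
MUC1 repeat unit: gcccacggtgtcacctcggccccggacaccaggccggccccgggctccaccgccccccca
MUC4 repeat unit: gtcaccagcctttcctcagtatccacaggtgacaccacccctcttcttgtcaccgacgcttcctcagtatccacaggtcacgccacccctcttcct
MUC20 repeat unit: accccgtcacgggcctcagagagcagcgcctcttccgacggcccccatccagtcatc
The kept stretch of MUC16 had a unit of 468 bases over 8.1% of its coding sequence, and that of MUC5AC one of 120 bases over 3.51%. Both percentages describe that stretch and not all repeats of the gene. No such stretch was found in MUC13, MUC5B or the trefoil factors. Of all windows of 75 bases, 37.1% recurred within the same transcript in MUC1, 17.6% in MUC4, 18.1% in MUC20, 15.2% in MUC5AC and 23.8% in MUC5B. In MUC20 64.3% of the windows also occurred in transcripts of other genes, namely MUC20-OT1 and the pseudogene MUC20P1. MUC5AC and MUC5B shared under 1% of their windows with each other. No window of MUC1, MUC4, MUC13, MUC16 or a trefoil factor occurred in another gene. How reads with several matches were counted is not given in the sources used here.

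The table of RefSeq promoters (GRCh38.p14) held windows for MUC1, MUC4, MUC13 and MUC16, each 300 bases long with 250 bases before and 50 after a start. No other member had a window, and MUC20, which rose, is among those without. MUC1 and MUC16 were lower in APX2009-treated cells, while MUC4 and MUC13 did not pass the test. Capitals mark every match, on either strand, to 8 short motifs: the TATA box TATAAA, the GC box GGGCGG, the AP-1 motif TGANTCA, the STAT motif TTCNNNGAA, the hypoxia-response core ACGTG, the aryl hydrocarbon receptor core GCGTG, the antioxidant element TGACNNNGC and the CCAAT box. All windows lie on the minus strand and are printed 5′ to 3′ along the gene.
MUC1 promoter, chr1:155192866-155193165: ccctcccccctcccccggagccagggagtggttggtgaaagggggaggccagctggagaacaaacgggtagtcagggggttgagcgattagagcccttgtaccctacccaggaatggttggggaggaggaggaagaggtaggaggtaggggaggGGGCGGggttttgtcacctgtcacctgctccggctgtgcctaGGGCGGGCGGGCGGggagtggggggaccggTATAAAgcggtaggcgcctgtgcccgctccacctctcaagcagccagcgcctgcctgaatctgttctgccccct
MUC16 promoter, chr19:9065702-9066001: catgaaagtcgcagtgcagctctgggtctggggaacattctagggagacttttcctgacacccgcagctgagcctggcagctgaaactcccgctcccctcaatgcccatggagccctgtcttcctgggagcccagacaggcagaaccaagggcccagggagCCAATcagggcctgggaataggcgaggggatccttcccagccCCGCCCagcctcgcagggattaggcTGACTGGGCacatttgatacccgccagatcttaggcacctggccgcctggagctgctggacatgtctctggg
MUC4 promoter, chr3:195811880-195812179: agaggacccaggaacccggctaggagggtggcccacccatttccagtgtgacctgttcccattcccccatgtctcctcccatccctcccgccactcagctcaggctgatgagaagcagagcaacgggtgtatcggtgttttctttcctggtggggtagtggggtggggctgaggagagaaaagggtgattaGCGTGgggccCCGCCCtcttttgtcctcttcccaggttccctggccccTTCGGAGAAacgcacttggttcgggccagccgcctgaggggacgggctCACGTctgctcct
MUC13 promoter, chr3:124934702-124935001: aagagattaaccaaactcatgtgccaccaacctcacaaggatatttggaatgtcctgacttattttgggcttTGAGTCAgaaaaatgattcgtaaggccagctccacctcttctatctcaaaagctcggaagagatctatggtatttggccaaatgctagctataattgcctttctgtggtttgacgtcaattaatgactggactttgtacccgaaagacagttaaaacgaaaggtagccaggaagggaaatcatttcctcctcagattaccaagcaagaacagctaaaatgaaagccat
The MUC1 window held 1 TATA box, a motif found in 11.5% of the 35116 windows in the table, and 4 matches to the GC box, 3 of which overlap each other; 45% of windows held at least 1. A second MUC1 window, at chr1:155192860-155193159, overlaps the first and held the same matches. The MUC16 window held 1 GC box, 1 CCAAT box (34.6% of windows) and 1 antioxidant element (13.3% of windows). The MUC4 window held 1 match each to the GC box, the STAT motif (7.66% of windows), the hypoxia core (21.4% of windows) and the aryl hydrocarbon receptor core (36.5% of windows). The MUC13 window held 1 AP-1 motif, found in 7.71% of windows. It lies inside the gene as annotated in GENCODE 29, whose upstream end is at 124953819. RefSeq gives MUC16 a further start, at chr19:9010360-9010659, whose window held 1 AP-1 motif and none of the other motifs; both MUC16 windows lie beyond the upstream end of the gene in GENCODE 29. Which start OE33 cells use was not measured, and a match is a description of the letters only.

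The libraries held 21158750 to 26111656 gene counts in APX2009-treated cells and 22443569 to 25093753 in untreated cells. Synthetic ERCC transcripts took 0.315% to 0.752% of all counts in the APX2009 group and 0.48% to 0.564% in the untreated group. The epithelial label was checked with KRT19, a keratin of glandular epithelium, at 11303 ± 1400 CPM (counts scaled to library size) in treated and 18555 ± 382 CPM in untreated cells (SD, n = 3), and with the epithelial adhesion molecule EPCAM, at 446.3 ± 4.84 and 447.1 ± 12.4 CPM. Of 5 tested columnar markers 4 fell, and all 3 tested squamous markers fell, where 17.4% of all tested genes were lower. Summed squamous levels were 17.5 to 22.3 CPM in treated and 68.7 to 74.3 CPM in untreated cells. The columnar markers KRT20, CDH17, VIL1 and CLDN18 were below the count filter, with at most 8, 2, 9 and 14 counts in any library. Of 7 goblet cell markers, 4 had no count in any library (ATOH1, TFF3, ZG16 and CLCA1). Of 6 fibroblast markers, 4 had no count in any untreated library, and the summed level of the list was 9.11 to 19.2 CPM in treated and 8.35 to 12.7 CPM in untreated cells. Most of that sum was COL1A1, at 9.11 to 14.3 CPM in treated and 8.35 to 12.6 CPM in untreated cells. APX2009 replicate 1 alone held COL1A2, COL3A1 and DCN, with 26, 48 and 42 counts. Summed endothelial markers were 2.02, 0.0889 and 0.0958 CPM in treated and 0.134, 0.402 and 0.0445 CPM in untreated libraries. Summed leukocyte markers were 6.37 to 7.23 CPM in treated and 5.07 to 6.14 CPM in untreated libraries. Among them CD68, a lysosomal protein abundant in macrophages, rose 2.28-fold (edgeR adjusted p = 0.00513), while PTPRC, the defining leukocyte marker, had 6 counts in APX2009 replicate 1 and 0 in all other libraries. The part of this in the results was not tested, and the changes of MUC1, MUC16 and MUC20 are given with and without that library.

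Of the 10 genes, 7 had enough counts to be tested. MUC1 and MUC16 fell and MUC20 rose, all of them membrane mucins, while MUC4, MUC13, MUC5AC and TFF1 did not pass (edgeR quasi-likelihood test, Benjamini-Hochberg adjusted p under 0.05 over all tested genes). MUC5B, TFF2 and TFF3 were below the count filter. MUC16 passed that filter through the untreated libraries, where it is high, and without it 2 of 6 tested genes changed. Among all 14773 tested genes 34.7% passed, 17.2% higher and 17.4% lower in treated cells, so 3 of 7 is close to the background and says nothing particular about the family. All 3 calls ended with the ERCC total as library size, at log2 changes of -1.27 for MUC1 (edgeR adjusted p = 0.577), -2.11 for MUC16 (edgeR adjusted p = 0.119) and 0.72 for MUC20 (edgeR adjusted p = 1). The same 3 genes had CPM values that did not overlap between the groups, as did 49.4% of all tested genes, 24.5% with treated cells above and 25% with treated cells below. The 7 genes had a median log2 change of -0.44, against 0.02 over all tested genes. In bulk RNA a lower level in fewer cells and a lower level in every cell cannot be told apart.

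**Figure D1:**
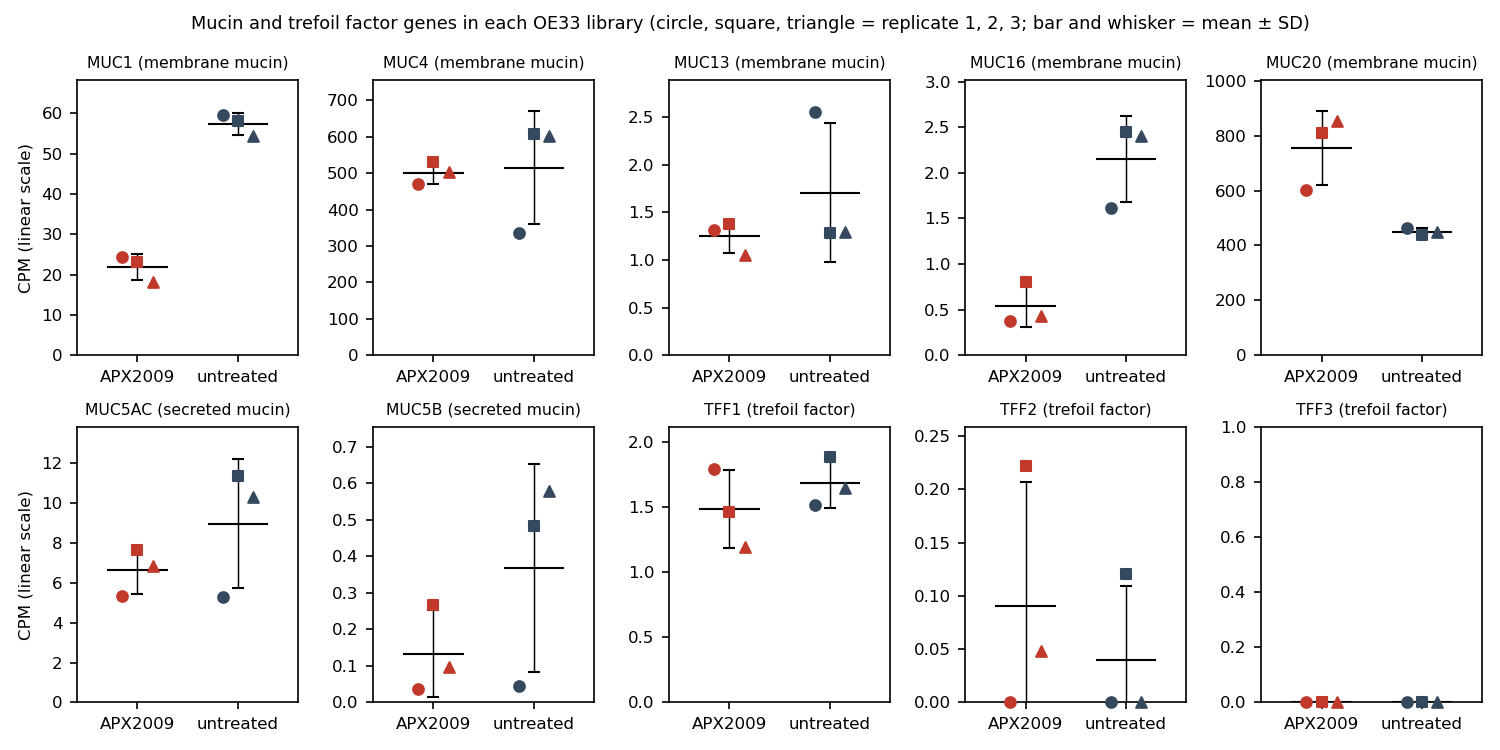
Level of each of the 10 genes in each library, as CPM on a linear axis from 0 with its own range per gene; symbols are replicates, bars means and whiskers SD of 3 libraries (the whisker of TFF2 is cut off at 0). MUC1 and MUC16 lay lower and MUC20 higher in all 3 APX2009 libraries than in any untreated library, and TFF3 had no count.

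MUC1 codes for the best-studied membrane mucin, whose cytoplasmic tail binds signalling proteins such as beta-catenin (ENSG00000185499, chromosome 1, 155185824 to 155192916, minus strand). Its level was 24.4, 23.2 and 18.2 CPM in the 3 APX2009 libraries, against 59.5, 58.0 and 54.3 CPM in the 3 untreated libraries. Every treated library lay below every untreated one, with a wide gap between the groups. MUC1 thus fell 2.60-fold, at a log2 change of -1.38 with SE 0.10 (edgeR, adjusted p = 7.56e-06), and only 0.501% of tested genes had a more negative log2 change. Without APX2009 replicate 1 the log2 change was -1.47 (edgeR adjusted p = 3.26e-07). The annotation has MUC1 share 48 exon bases with AL713999.1 on the same strand, a gene with at most 2 counts in any library. Its neighbours TRIM46 and THBS3, at 853 and 2672 bases, did not pass (edgeR adjusted p = 0.187 and 0.103, log2 changes of -0.43 and -0.27).

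MUC16 codes for the very large membrane mucin that carries the CA125 antigen (ENSG00000181143, chromosome 19, 8848844 to 8981342, minus strand). It was a low transcript, with 10, 18 and 9 counts in the APX2009 libraries and 36, 61 and 54 counts in the untreated ones. Its level was 0.375, 0.800 and 0.431 CPM in treated cells, against 1.61, 2.45 and 2.40 CPM in untreated cells. The groups did not overlap, and untreated replicate 1 was the lowest of its group. MUC16 fell 4.03-fold, at a log2 change of -2.01 with SE 0.33 (edgeR, adjusted p = 0.0011). It was -1.79 without APX2009 replicate 1 (edgeR adjusted p = 0.00175). The gene entered the test through the untreated libraries, since only 1 treated library reached the filter's 0.444 CPM, so the filter favoured a lower treated level. With no filter on low counts the log2 change was -2.02 with SE 0.33 and passed. That fit took in 30502 genes, and its edgeR adjusted p for MUC1 was 1.47e-57 against 7.56e-06 in the main fit. A pass in it is thus not comparable with a pass in the main fit. Its nearest protein-coding neighbours, MBD3L1 and OR1M1, had no count in any library.

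MUC20 codes for a membrane mucin known to bind the receptor tyrosine kinase MET (ENSG00000176945, chromosome 3, 195720882 to 195741123, plus strand). It had 600.5, 808.4 and 853.9 CPM in the APX2009 libraries, against 464.3, 439.6 and 447.6 CPM in the untreated libraries. All treated values were higher, and they were more spread than the untreated ones, with replicate 1 the lowest. MUC20 rose 1.67-fold, at a log2 change of 0.74 with SE 0.12 (edgeR, adjusted p = 0.000854), which was 0.88 without APX2009 replicate 1 (edgeR adjusted p = 9.89e-08). The overlapping transcript MUC20-OT1, which shares 1820 exon bases with MUC20 on the same strand, had 41.2, 37.4 and 41.8 CPM in treated and 27.7, 21.1 and 26.4 CPM in untreated cells. It rose 1.60-fold (log2 change 0.68 ± 0.10, edgeR adjusted p = 0.000692). The pseudogene MUC20P1, at the same end of chromosome 3, had 74.0, 73.1 and 82.6 CPM in treated and 47.6, 44.2 and 41.2 CPM in untreated cells, and rose 1.73-fold (log2 change 0.79 ± 0.08, edgeR adjusted p = 4.26e-05). MUC20P1 entered the comparison through the windows it shares with MUC20. All 3 rose by a like factor. With 64.3% of MUC20 windows found in MUC20-OT1 or MUC20P1, reads from much of the MUC20 transcript cannot be told apart from theirs. The 1820 bases shared with MUC20 are a small part of the 17599 annotated exon bases of MUC20-OT1.

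**Figure D2:**
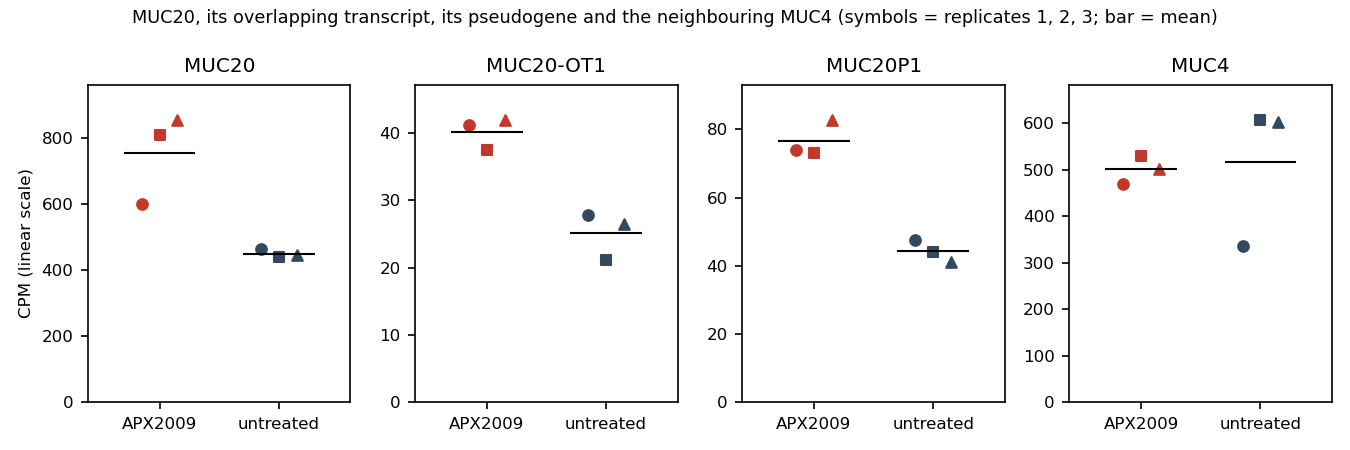
Levels in CPM (linear axis from 0) of MUC20, the overlapping transcript MUC20-OT1, the pseudogene MUC20P1 and the neighbouring MUC4, with APX2009 libraries to the left of untreated ones; symbols are replicates and bars means. The first 3 panels show the treated libraries above the untreated ones, while the MUC4 groups overlap and untreated replicate 1 lies lowest at 336 CPM.

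MUC4 lies 5642 bases from MUC20 on the opposite strand and codes for a membrane mucin that forms a complex with the receptor ERBB2 (ENSG00000145113, chromosome 3, 195746765 to 195812277). Its level was 469.9, 529.6 and 502.0 CPM in treated cells, against 336.0, 607.0 and 602.8 CPM in untreated cells. The treated libraries lay close together inside the range of the untreated ones, whose replicate 1 stood far below the other two. MUC4 did not pass the test, at a log2 change of -0.04 with SE 0.18 (edgeR, adjusted p = 0.878). Without untreated replicate 1 the log2 change was -0.27 and passed (edgeR adjusted p = 0.0347), so the call rests on that library. On its other side TNK2, a cytoplasmic tyrosine kinase gene 51087 bases away, was lower by a log2 change of -0.24 ± 0.08 (edgeR adjusted p = 0.0422).

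MUC13, a membrane mucin of the gut surface (ENSG00000173702, chromosome 3, 124905442 to 124953819, minus strand), was barely detected. It had 35, 31 and 22 counts in treated and 57, 32 and 29 counts in untreated libraries, or 1.31, 1.38 and 1.05 CPM against 2.55, 1.29 and 1.29 CPM. The groups overlapped, and untreated replicate 1 stood above all others. The log2 change of -0.44 ± 0.31 did not pass (SE; edgeR adjusted p = 0.294), and it was -0.04 without untreated replicate 1.

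**Figure D3:**
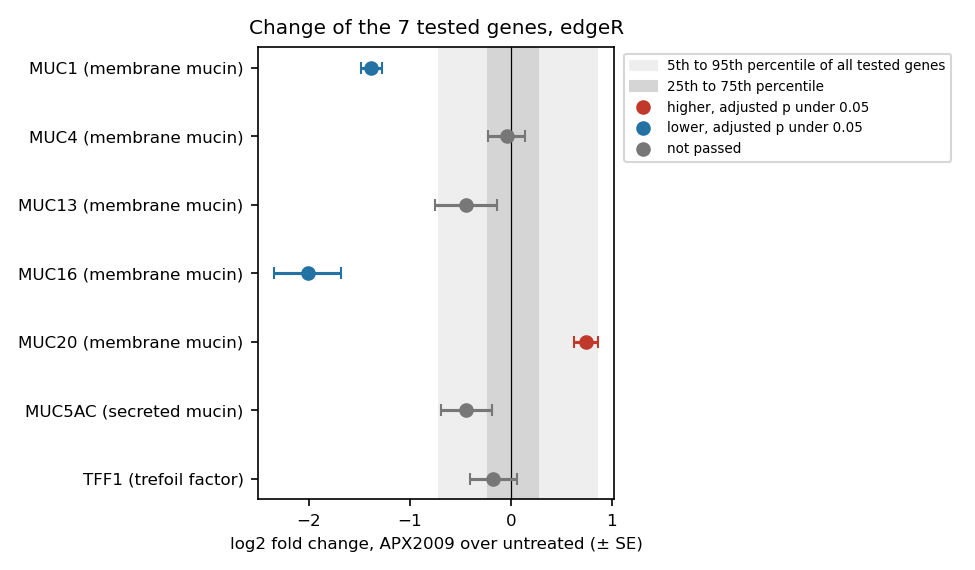
Log2 fold change of the 7 tested genes, APX2009 over untreated, with SE from edgeR; shaded bands hold the middle of the log2 changes of all 14773 tested genes. MUC16 (-2.01) and MUC1 (-1.38) lie left of the wider band, MUC20 (0.74) lies within it, and the genes drawn in grey did not pass.

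Among the secreted mucins, MUC5AC, the gel-forming mucin of gastric surface cells (ENSG00000215182, chromosome 11, 1157953 to 1201138, plus strand), was the higher per base of exon. Its level was 5.36, 7.64 and 6.85 CPM in treated cells, against 5.28, 11.3 and 10.3 CPM in untreated cells. The groups overlapped through untreated replicate 1. The log2 change of -0.44 ± 0.25 did not pass (SE; edgeR adjusted p = 0.2). Without untreated replicate 1 it was -0.71 and passed (edgeR adjusted p = 0.0136). It also passed with no filter on low counts (edgeR adjusted p = 0.021), where its SE was 0.15 against 0.25 in the main fit. MUC5B, the main gel-forming mucin of airway glands (ENSG00000117983, chromosome 11, 1223066 to 1262172, plus strand), had 1, 6 and 2 counts in treated and 1, 12 and 13 counts in untreated libraries and was not tested. Replicate 1 held the single count in each group. The gene order on this chromosome is MUC2, MUC5AC, MUC5B and TOLLIP. MUC2, the goblet cell mucin 47442 bases from MUC5AC, had 8, 6 and 7 counts in treated and 13, 17 and 13 in untreated libraries, and did not pass (log2 change -1.02 ± 0.38, edgeR adjusted p = 0.0597). It reached the count filter in untreated libraries only, so that its values are a description. TOLLIP, an adaptor of Toll-like receptor signalling, rose by a log2 change of 0.26 ± 0.09 (edgeR adjusted p = 0.0458).

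The 3 trefoil factor genes lie in a row on chromosome 21, and TFF1 was the only one with a measurable level. TFF1 (ENSG00000160182, 42362282 to 42366594, minus strand), the gastric trefoil factor, had 48, 33 and 25 counts in treated and 34, 47 and 37 counts in untreated libraries. That is 1.80, 1.47 and 1.20 CPM against 1.52, 1.89 and 1.65 CPM, with groups that overlap. Its log2 change of -0.17 ± 0.23 did not pass (SE; edgeR adjusted p = 0.597). TFF2 (ENSG00000160181, 42346357 to 42351128), the gland trefoil factor, had 0, 5 and 1 counts in treated and 0, 3 and 0 counts in untreated libraries. TFF3 (ENSG00000160180, 42311667 to 42315651), the goblet cell trefoil factor, had 0 counts in all 6 libraries. A count of 0 allows up to 3 counts, which is 0.112 to 0.144 CPM in the treated and 0.12 to 0.134 CPM in the untreated libraries and covers counting error only. A fall of TFF2 or TFF3, or a rise that stayed near these values, was thus not detectable at this depth. A rise of either to the level of TFF1 would have been seen, and was not. Outside the row, TMPRSS3 and ABCG1 did not pass (edgeR adjusted p = 0.101 and 0.785).

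Levels can be compared between genes only per length, and CPM per kilobase of annotated exon was used for this. That length takes no account of repeated or shared windows, such as the 64.3% of MUC20 windows found in other genes. The order of the genes and the shares below carry that limit. On that scale MUC20 averaged 177.5 in treated and 106.0 in untreated cells, MUC4 23.5 and 24.2, and MUC1 4.65 and 12.1. TFF1 followed with 2.70 and 3.06, MUC5AC with 0.379 and 0.514, and MUC13 with 0.357 and 0.488. TFF2 averaged 0.108 and 0.0484, with wide spread, MUC16 0.0122 and 0.0491, and MUC5B 0.00717 and 0.0198. MUC20 and MUC4 were clear of their neighbours in every library, whereas MUC5AC and MUC13 overlapped. MUC4 was above MUC1 in each library, by the least margin in untreated replicate 1, at 15.8 against 12.6. MUC1 made up 3.00%, 2.19% and 1.67% of the summed level of the 10 genes in the treated libraries, against 8.92%, 8.26% and 7.72% in the untreated ones. MUC20 made up 81.9%, 85.0% and 86.9% against 77.2%, 69.5% and 70.6%. The shares of MUC1 and of MUC20 do not overlap between the groups, and both inherit the changes given above.

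**Figure D4:**
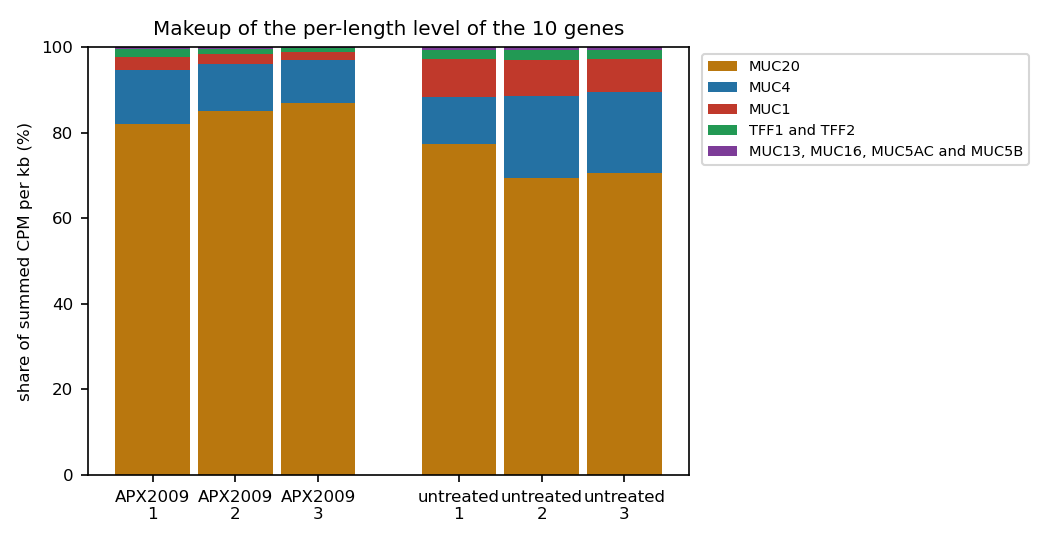
Share of each gene in the summed CPM per kilobase of the 10 genes, in % for each library, APX2009 libraries to the left; TFF3 has no count and TFF1 and TFF2 are summed. The MUC1 band is 1.67% to 3.00% high in treated and 7.72% to 8.92% in untreated libraries, and MUC20 fills most of every bar.

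The membrane class and the secreted class were then set side by side, on the same scale and with the same limit. Summed CPM per kilobase of the 5 membrane mucins was 168.9, 220.4 and 228.7 in treated cells, against 138.4, 144.7 and 145.6 in untreated cells. This sum follows MUC20: without it, the other membrane mucins summed to 27.6, 30.2 and 27.7 in treated and 29.1, 41.2 and 40.2 in untreated cells. Secreted mucins summed to 0.309, 0.452 and 0.398 in treated and 0.305, 0.675 and 0.620 in untreated cells, which overlap. Secreted mucins amounted to 0.183%, 0.205% and 0.174% of the membrane sum in treated and to 0.22%, 0.467% and 0.426% in untreated cells. With MUC20 left out of the membrane sum, these shares were 1.12%, 1.5% and 1.43% in treated and 1.05%, 1.64% and 1.54% in untreated cells, and the groups overlapped. The gap between the groups in this share was thus seen only with MUC20 in the sum. Of 5 membrane mucins 1 rose, 2 fell, MUC16 with the limit given above, and 2 did not pass. Among all tested genes 17.2% were higher and 17.4% lower, and counts of so few genes say nothing particular about the class. Of 2 secreted mucins the 1 tested did not pass, and a difference between the classes was not tested.

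Of 17 other mucin and mucin-like genes, 6 were tested, 1 rose and 2 fell, with a median log2 change of -0.16. Among all tested genes 17.2% were higher and 17.4% lower. MUC3A, a membrane mucin of the intestine, fell 1.51-fold, at 17.9 ± 0.959 CPM in treated and 27.1 ± 1.67 CPM in untreated cells (SD, n = 3; edgeR adjusted p = 0.000401). PODXL, a sialomucin of the cell surface, fell by 0.30 on the log2 scale (edgeR adjusted p = 0.00342). OVGP1, an oviductal secretory glycoprotein, rose 1.57-fold to 2.43 CPM, against 1.54 CPM in untreated cells (edgeR adjusted p = 0.0289), but did not pass when any 1 library other than APX2009 replicate 3 was left out. Of the 17, 5 had no count in any library, among them MUC7, MUC15 and MUC22.

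The enzymes that build the O-glycans of mucins changed in both directions. Their counts stand beside the 17.2% of all tested genes that were higher and the 17.4% that were lower. Of 11 tested polypeptide GalNAc-transferases, which add the first sugar, 6 fell and 1 rose (median log2 change -0.29). GALNT5 rose 1.40-fold to 747.0 ± 16.4 CPM in treated cells, against 532.4 ± 5.60 CPM in untreated cells (SD, n = 3), while GALNT12, GALNT10 and GALNT1 fell 1.68-fold, 1.56-fold and 1.37-fold (edgeR adjusted p from 0.000266 to 0.000453). Of 9 core-extending enzymes 3 rose and none fell (median 0.04). GCNT3, the mucin-type branching enzyme that makes core structures of gut mucins, rose 2.59-fold, at 58.7 ± 4.14 CPM in treated and 22.6 ± 0.531 CPM in untreated cells (edgeR adjusted p = 8.7e-07). GCNT4 and B4GALT4 rose 1.82-fold and 1.18-fold (edgeR adjusted p = 0.0381 and 0.0264), and the number of rises in this list was 1 or 2 when any single library was left out, and 1 fell without APX2009 replicate 3. B3GNT3 had a log2 change of -0.22 and did not pass (edgeR adjusted p = 0.0881). Of 15 tested capping enzymes 4 fell and 1 rose (median -0.16). The sialyltransferase ST6GALNAC4 rose 1.44-fold, and ST6GAL1, ST3GAL1 and the sulphotransferase CHST4 fell 1.68-fold, 1.30-fold and 1.49-fold (edgeR adjusted p from 0.00182 to 0.029). Without untreated replicate 1, 2 or 3 each, 2 of this list fell, and without APX2009 replicate 1, 3 rose and 5 fell.

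Among 12 tested genes of mucin folding, packaging and release, 4 rose and 3 fell (median log2 change 0.14). Of all tested genes 17.2% rose and 17.4% fell. AGR2, the disulphide isomerase of the endoplasmic reticulum that binds nascent mucins, had 288.6 ± 19.9 CPM in treated and 39.8 ± 1.75 CPM in untreated cells (SD, n = 3), a 7.26-fold rise (edgeR adjusted p = 5.92e-09). ERN2, the stress sensor kinase of mucous epithelia, fell 1.96-fold (edgeR adjusted p = 0.000506), and SYTL2, a RAB27 effector, fell 1.86-fold (edgeR adjusted p = 1.51e-05). MARCKS, an actin-linked protein of mucin secretion, rose 1.38-fold (edgeR adjusted p = 0.00113). Without untreated replicate 3, 2 of the list rose. FCGBP, a mucus protein that binds TFF3, fell 1.36-fold (edgeR adjusted p = 0.00962).

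**Figure D5:**
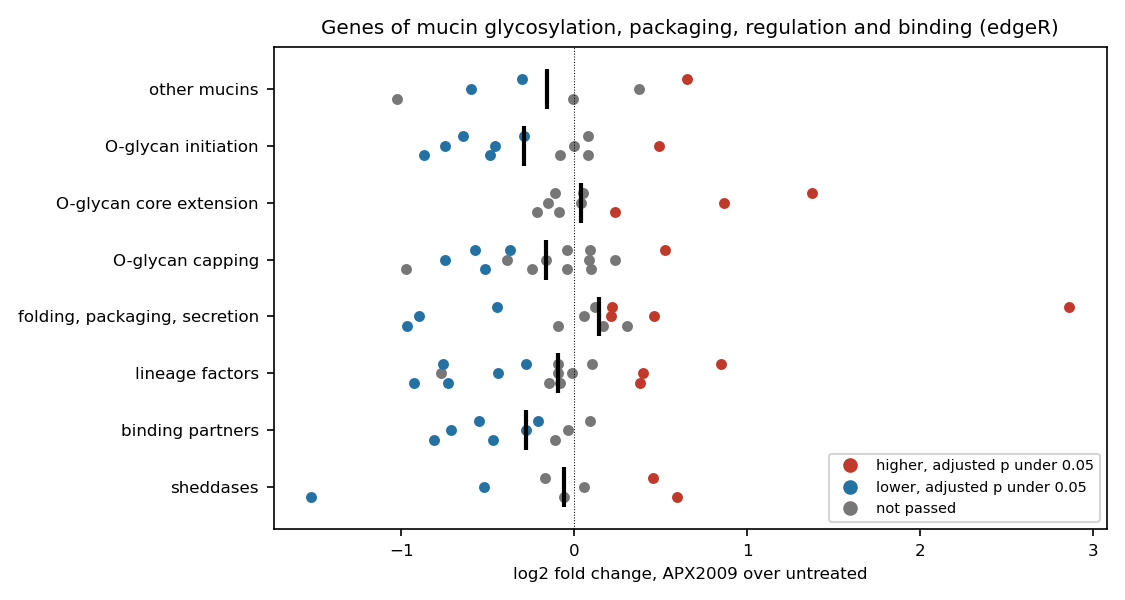
Log2 fold change, APX2009 over untreated, of each tested gene in 8 lists of mucin-related genes; each point is a gene, its colour the edgeR call, and the black bar the list's median. Points lie on both sides of 0 in each list, with AGR2 at 2.86 farthest right and MMP7 at -1.52 farthest left.

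Of 15 tested transcription factors of mucous and columnar lineages 3 rose and 5 fell (median log2 change -0.09). SOX9, HES1 and EHF fell 1.90-fold, 1.66-fold and 1.36-fold, and FOXA2 rose 1.80-fold (edgeR adjusted p from 1.16e-05 to 0.000859). The rises numbered 2 without untreated replicate 1, untreated replicate 3, APX2009 replicate 2 or APX2009 replicate 3. SPDEF, the goblet cell factor, had at most 10 counts in any library. Of 9 tested binding partners of mucins and trefoil factors none rose and 6 fell, with a median log2 change of -0.28, and 4 to 6 fell when any 1 library was left out. ERBB2, the partner of MUC4, fell 1.39-fold, and MSLN, which binds MUC16, fell 1.47-fold, to 255.3 ± 32.6 CPM in treated cells against 374.4 ± 8.78 CPM in untreated cells (SD, n = 3; edgeR adjusted p = 0.00149 and 0.0012). ICAM1 and LGALS9 fell 1.64-fold and 1.75-fold (edgeR adjusted p = 0.000293 and 0.000271). CXCR4 and LINGO2, named as receptors of trefoil factors, had at most 1 count in any library. Of 7 enzymes that cut or trim membrane mucins 2 rose and 2 fell (median -0.06). ADAM17, a sheddase of MUC1, rose 1.37-fold and the sialidase NEU1 1.51-fold, while MMP7 and ADAM15 fell 2.87-fold and 1.43-fold (edgeR adjusted p from 2.74e-07 to 0.000907). These lists were compared with no other lists. For all of them the background is the 34.7% of tested genes that passed, 17.2% higher and 17.4% lower. Scaled by the ERCC spike-in total, 1 gene of the packaging list rose and no other gene of these lists passed.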

How the data were processed

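The authors deposited raw whole-number counts per Ensembl gene for 6 libraries, with no normalization. Trimmomatic 0.36 and STAR 2.5.2b, with GRCh38 as the build, are listed per the submitters' processing notes, as are Subread 1.5.2 and featureCounts. Which annotation and strand setting were used, and how reads with several matches were treated, is not given in the sources used here. Of 58051 genes, 57447 matched GENCODE 29, which gave symbols, coordinates and exon lengths. The 92 ERCC transcripts stayed out of library sizes and tests. Genes passing filterByExpr were scaled by TMM and tested with the edgeR 4.0.16 quasi-likelihood test (R 4.3.3) on treatment alone, with Benjamini-Hochberg adjustment at 0.05; SE came from the F statistic. CPM used TMM-adjusted library sizes. Named genes are all members, their nearest protein-coding neighbours and up to 4 tested genes of each list with the smallest p; others named were chosen after their values were seen. The members and lists were chosen with earlier results of these data known. The test was checked on simulated data. Alternatives used limma 3.58.1, DESeq2 1.42.0, other scalings and filters, a replicate block and leaving out each library. Figures were drawn with matplotlib 3.10.9.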

Additional observations from a re-analysis of the deposited data

How the results depend on the processing

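MUC1 and MUC16 stayed lower and MUC20 higher, each past the threshold, in 15 of 16 alternatives: other size factors, other filters, DESeq2, limma voom, the replicate block, leaving out the most counted genes and leaving out each library. For MUC16 this carries the limit given above: only 1 treated library reached 0.444 CPM, so the filter favoured a lower treated level. The exception to the 15 was scaling by the ERCC spike-in total, where 136 of all tested genes passed, with 0 members higher and 0 lower. There the log2 changes were -1.27 for MUC1 (adjusted p = 0.577), -2.11 for MUC16 (adjusted p = 0.119) and 0.72 for MUC20 (adjusted p = 1), and none of the related lists but 1 held a called gene. The cause was not tested. Over the 16 alternatives log2 changes ran from -1.47 to -1.27 for MUC1, -2.41 to -1.79 for MUC16 and 0.64 to 0.88 for MUC20. The number of members that fell was 2 to 4 when 1 library was left out, with 4 without untreated replicate 1, when MUC4 and MUC5AC also passed. In that setting 8 members were tested, and 2101 of all 15102 tested genes were lower. MUC5AC passed as well with no filter on low counts (log2 change -0.45) and with the replicate block (log2 change -0.39, edgeR adjusted p = 0.0468). With no filter its SE was 0.15, against 0.25 in the main fit, so that pass is not comparable with the others. Deviations of same-numbered libraries from their group means correlated at 0.14, 0.0782 and 0.00599, so the numbers were not taken as pairs, and APX2009 replicate 3 correlated best with untreated replicate 2. The log2 ratios of the class sums moved by less than the replicate spread with total gene counts, with the longest transcript as length and without each library in turn. Below about 10 counts a library, as in MUC5B and TFF2, depth limits what can be shown.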

Other observations

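Replicate 1 was the lowest library of both groups for MUC4, MUC16, MUC5AC and MUC5B. Relative to the mean of the other two libraries of its group, replicate 1 stood at 0.739 in treated and 0.488 in untreated cells for MUC5AC. The ratios were 0.608 and 0.663 for MUC16, and 0.911 and 0.555 for MUC4. MUC5B, at few counts, stood at 0.207 and 0.0843. Among all 14773 tested genes 0.819% had replicate 1 under 0.75 of the other two in both groups, a limit chosen after these values were seen; of the tested members MUC16 and MUC5AC were such genes. The labels do not say whether libraries of the same number were handled together, and the part of this in the results was not tested. MUC1, MUC13 and TFF1 did not share the pattern.

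HEG1, a membrane protein with a mucin-like stretch that lies 11891 bases from MUC13, was low. It had 1.69, 1.16 and 0.862 CPM in treated cells, against 0.268, 0.361 and 0.311 CPM in untreated cells. It reached the filter's 0.444 CPM in treated libraries only, so its test is not given. ITGB5, on the other side of MUC13, did not pass (log2 change -0.06, edgeR adjusted p = 0.632).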
